A study of Mus musculus with 20 samples.

Results

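Regions of chromatin acetylated at histone H3 lysine 27 (H3K27ac) were selected where they lay at an annotated end of a long noncoding RNA (lncRNA) gene and away from protein-coding gene ends. The called regions of 10 mouse hepatocyte libraries were merged by overlap of at least 1 bp. A merged region was kept when it was autosomal, was called in 5 or more libraries, lay within 1 kb of an end of a lncRNA gene in the mm10 RefSeq annotation, and had no protein-coding gene end within 5 kb. This left 1189 members of 46767 merged regions, or 5.27% of the 22572 autosomal regions called in 5 or more libraries. The choice used position and the number of calls, not age or signal level, although a region with little signal is called in fewer libraries.

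The hepatocytes were isolated by liver perfusion from young mice, aged 5 months and of the substrain C57BL/6N, and from old mice, aged 23 months and of the substrain C57BL/6J. Each age had 5 H3K27ac libraries, each called against its own input. No treatment or engineered allele is named for either group. Age and substrain cannot be told apart in any comparison of young with old, and where the labels do not say that replicates came from separate animals, p-values measure only the spread between these libraries. The study's title concerns interferon signalling and liver cancer with age, and the comparison of ages addresses which acetylated regions differ.

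The libraries held 6295930 to 15544145 tags and 21213 to 30195 called regions. IP efficiency, the percentage of tags inside called regions, was 40.2% ± 6.62 in the young and 31.9% ± 4.81 in the old (SD, n = 5 each; exact permutation p = 0.0476, two-sided). All 8 hepatocyte markers had a called gene-end region in all 10 libraries. None of the 5 Kupffer cell markers had a call in any library. Of the endothelial, stellate, cholangiocyte and lymphocyte markers 6 of 18 had a call in at least 1 library and 0 of 18 in all 10. The stellate marker Reln and the lymphocyte marker Cd79a were called in 9 libraries each. The endothelial marker Lyve1 was called in 8, the cholangiocyte marker Spp1 in 6, and the endothelial Stab2 and Clec4g in 1 each.

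A lncRNA gene is transcribed into RNA that encodes no known protein. Some lncRNAs act in the nucleus, where they scaffold bodies of processing factors or silence neighbouring genes, others are hosts from which small RNAs are cut, and for most predicted models no function is known. H3K27ac, written by the acetyltransferases CBP and p300, marks active promoters and active enhancers, and many lncRNA genes start inside enhancers. An acetylated region at the end of a lncRNA gene may therefore be a promoter, an enhancer or both.

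The members touched 1168 lncRNA genes, 9.41% of the 12408 autosomal lncRNA genes in the annotation. The rule leaves out regions within 5 kb of a protein-coding gene end, so this is not the share of lncRNA genes with an acetylated end. Predicted gene models, whose symbols begin with Gm, made up 931 of these genes and RIKEN clones 159. Small nucleolar RNA hosts contributed 5 genes, opposite-strand genes 16, and 116 genes had more than 1 member. The lncRNA end lay inside the region for 891 members and beside it for 298. Between protein-coding genes lay 775 members (65.2%), and 414 (34.8%) lay wholly inside one. The median distance to the nearest protein-coding gene end was 29670 bp, and 155 members were more than 100 kb from any. Of the genes, 900 had a start in the RefSeq promoter table (build GRCm38.p6, the mm10 assembly). A start of the lncRNA gene placed 658 members (55.3%) and only the other end of the gene 250 (21.03%), and for 281 the table held no start.

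At the edge of the rule stood Gm17196, at 1000 bp from its lncRNA end with a mean signal of 38.7 tags, and Gldnos, left out at 1002 bp with 37.7 tags. The 5 kb limit fell between Gm33560, kept at 5030 bp with 24.8 tags, and B330016D10Rik, left out at 4976 bp with 555 tags. With calls in 4 libraries, Gm33432 (180 tags, 0 young and 4 old libraries) and E230001N04Rik (129 tags, 4 young and 0 old) were left out. These signals are tags scaled to 10000000 tags per library, called scaled tags below.

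The start windows of 6 of the 7 members that passed the test of age and have one inside the region follow, in order to show what such starts look like; that of Gm39277 is left out for length. Each window runs from 250 bases before the annotated start of the lncRNA to 50 after it and lies inside the acetylated region. The strand given is that of the gene, the sequence is printed 5′ to 3′ along it, the source is RefSeq (GRCm38.p6), and capitals mark CG dinucleotides, the sites of DNA methylation that cluster in CpG islands.
Gm34333 lies at chr5:146600084-146600383, minus strand, and its window had 2 CG.
Gm34333: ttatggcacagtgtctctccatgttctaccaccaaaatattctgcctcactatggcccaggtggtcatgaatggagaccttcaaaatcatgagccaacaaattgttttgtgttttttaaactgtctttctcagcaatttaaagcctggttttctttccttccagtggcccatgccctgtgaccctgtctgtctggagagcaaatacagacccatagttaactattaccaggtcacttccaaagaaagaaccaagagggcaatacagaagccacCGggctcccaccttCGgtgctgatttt
Gm33447 lies at chr13:97375930-97376229, plus strand, and its window had 5 CG.
Gm33447: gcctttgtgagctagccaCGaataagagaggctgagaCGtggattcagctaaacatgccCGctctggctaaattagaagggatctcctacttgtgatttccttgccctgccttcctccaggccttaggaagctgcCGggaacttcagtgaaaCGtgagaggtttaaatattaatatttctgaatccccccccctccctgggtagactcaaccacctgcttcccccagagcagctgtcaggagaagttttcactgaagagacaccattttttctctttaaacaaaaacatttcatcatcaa
2010106C02Rik lies at chr17:86287129-86287428, minus strand, and its window had 3 CG.
2010106C02Rik: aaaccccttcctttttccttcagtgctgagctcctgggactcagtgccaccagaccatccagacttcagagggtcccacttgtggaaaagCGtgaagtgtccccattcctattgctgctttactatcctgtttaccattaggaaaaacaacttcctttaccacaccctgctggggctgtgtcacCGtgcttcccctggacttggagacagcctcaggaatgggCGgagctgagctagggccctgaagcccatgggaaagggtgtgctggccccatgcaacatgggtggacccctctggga
Gm39044 lies at chr7:84164865-84165164, minus strand, and its window had 2 CG.
Gm39044: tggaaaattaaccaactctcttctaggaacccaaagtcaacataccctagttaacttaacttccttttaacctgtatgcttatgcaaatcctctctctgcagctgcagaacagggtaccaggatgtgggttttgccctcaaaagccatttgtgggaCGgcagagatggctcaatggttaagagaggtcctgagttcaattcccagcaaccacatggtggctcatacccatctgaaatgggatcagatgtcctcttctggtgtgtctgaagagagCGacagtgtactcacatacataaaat
Gm16573 lies at chr14:56620464-56620763, minus strand, and its window had 7 CG.
Gm16573: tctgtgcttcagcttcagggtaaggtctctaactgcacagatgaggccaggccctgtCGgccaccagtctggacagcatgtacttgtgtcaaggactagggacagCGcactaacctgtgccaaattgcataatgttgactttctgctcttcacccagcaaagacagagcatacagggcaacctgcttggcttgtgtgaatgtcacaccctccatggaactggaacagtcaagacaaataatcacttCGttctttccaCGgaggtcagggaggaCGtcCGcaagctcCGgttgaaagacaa
Gm40345 lies at chr5:135689002-135689301, minus strand, and its window had 28 CG.
Gm40345: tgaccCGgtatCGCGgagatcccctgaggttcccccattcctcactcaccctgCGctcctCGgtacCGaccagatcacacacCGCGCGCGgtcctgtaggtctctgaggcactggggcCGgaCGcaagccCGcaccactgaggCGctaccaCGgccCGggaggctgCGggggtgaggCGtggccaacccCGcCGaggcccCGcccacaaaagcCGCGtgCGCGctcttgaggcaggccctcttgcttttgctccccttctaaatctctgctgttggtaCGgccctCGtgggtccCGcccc
The first 4 belong to regions with more signal in the old and the last 2 to regions with less. Gm40345 was the only window of the 6 with 10 or more CG.

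Over all members, 630 start windows of 556 genes lay inside the acetylated region. Of these, 26.98% had 10 or more CG, beside 44.0% of the 31396 autosomal windows in the table, 57.9% of the protein-coding windows and 19.2% of the lncRNA windows. Median GC content was 50.7% in the members' windows and 53.0% in all windows. Sequence motifs were searched on both strands. The HNF4 motif CAAAGTCCA was in 12 windows (1.9%) against 0.49% of all windows and 0.53% of lncRNA windows, and HNF4A is the nuclear receptor that maintains hepatocyte identity. The forkhead motif TGTTTAC, bound by FOXA factors, was in 6.03% against 3.71% of all and 4.91% of lncRNA windows. The D-box TTATGTAA was in 1.59% against 0.96% of all and 1.04% of lncRNA windows. The E-box CACGTG was in 8.57% against 7.14% and 5.83% in the same order. The TATA box TATAAA was in 14.1%, above the 13.6% of all windows and below the 15.2% of lncRNA windows. The interferon response element was in 2.22% against 3.46% of all and 3.6% of lncRNA windows. The C/EBP palindrome TTGCGCAA was in 0.16%, below the 0.18% of all windows and above the 0.11% of lncRNA windows. The HNF1 palindrome was in 0 of 630 against 0.01% of all and 0.02% of lncRNA windows. In the windows printed above the only match was the forkhead motif at position 129 of 2010106C02Rik, counted from the 5′ end. Among the strongest members, the HNF4 motif was in a window of Gm35591 inside Per2 and in that of Gm32845, which shares a region with Gm32800. These matches describe letters and were not tested for binding.

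Mature microRNAs are shown for 2 members that hold their hairpins, since a region at a lncRNA end can be the region of a small RNA as well. These members were singled out after their values were seen. The region at Lncppara and Gm34622 (chr15:85700805-85709636, mm10), 25274 bp from the nearest end of Ppara, the gene of the fatty acid sensor PPAR alpha, holds the hairpins of let-7c-2 and let-7b. The region at Gm41406 (chr15:103284329-103286723) holds that of miR-148b, a family abundant in liver. The sequences are from RefSeq, 5′ to 3′, with the seed (bases 2 to 8) in capitals, and let-7c and let-7b share theirs.
mmu-let-7c-5p: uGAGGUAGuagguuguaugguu
mmu-let-7b-5p: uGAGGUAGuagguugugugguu
mmu-miR-148b-3p: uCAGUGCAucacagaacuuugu
The Lncppara region was called in 9 libraries. It had 381.8, 330.9, 490.3 and 322.6 tags in young replicates 2 to 5, no call in young replicate 1, and 457.8, 264, 346.4, 258.2 and 97.7 in old replicates 1 to 5. The ages overlapped. Gm41406 had 42.1 to 61.6 tags in the young and 38.6 to 62.7 in the old, and these overlapped too (log2 difference 0.24 ± 0.26 SE, limma adjusted p = 0.673). The other hairpins inside members were Mir6516 at Snhg20, Mir7687 at 1700016A09Rik and Gm51292 at Gm40277.

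In every library, acetylation at lncRNA ends was sparser than at protein-coding gene ends and denser than in distal regions. The median density was compared per library between the members, the 9331 regions within 1 kb of a protein-coding gene end, and the 8981 distal regions over 5 kb from any gene end of either kind. Members had 0.532 times the tags per kb of called length found at coding ends, a log2 difference of -0.91 ± 0.17 (SD over n = 10 libraries), lower in 10 of 10 (exact sign-flip p = 0.001953, two-sided, the smallest possible; adjusted over 6 comparisons 0.00293). Against distal regions the density was 1.37 times as high, a log2 difference of 0.45 ± 0.05, higher in 10 of 10 libraries (same exact p). Median density at members was 52.2, 48.1, 48.7, 46.4 and 34.2 tags per kb in young replicates 1 to 5 and 48.2, 40.2, 50.6, 42.3 and 48.0 in the old. Young replicate 5, the library with the most tags and the longest fragments (620 bp against 414 to 444 bp), was the lowest in each of the 3 classes among the young.

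**Figure D1:**
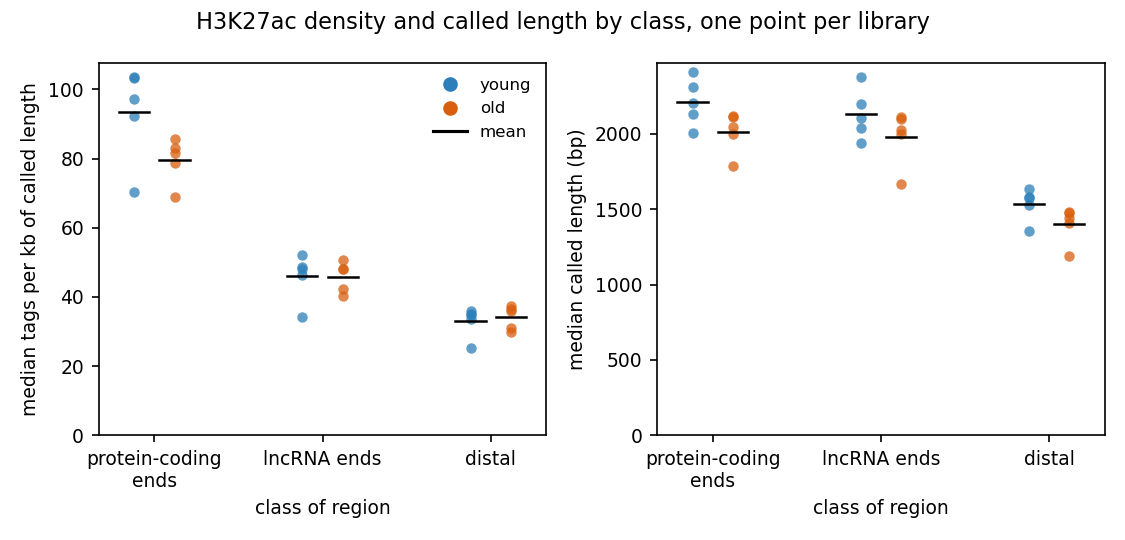
Median H3K27ac density in tags per kb of called length (left) and median called length in bp (right) of regions at protein-coding gene ends, at lncRNA ends and distal to both, with 1 point per library (blue young, orange old) and a black line at each age's mean. In density the lncRNA ends lie between the other classes in all 10 libraries, and in length they lie next to the coding ends.

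Called regions at lncRNA ends were about as long as those at coding ends and longer than distal ones. The median called length of members was 1.40 times that of distal regions, longer in 10 of 10 libraries (exact sign-flip p = 0.001953). The rule favours this direction, because distances to gene ends ran from the region's edges. A wider region comes within 1 kb of an end more easily and is less easily distal. How much of the length difference the rule sets was not tested. Against coding ends the ratio was 0.973 with 0 of 10 libraries longer (exact p = 0.003906), but the direction changed under 4 other settings, among them regions called in all 10 libraries (log2 difference 0.11, exact p = 0.001953). On average a library called 89.2% of the members, against 82.7% of distal regions and 93.3% of coding ends. These shares are a description, because all 3 classes were chosen by being called in 5 or more libraries.

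Which end of the lncRNA gene was acetylated went with density. The 658 members at a start had 1.37 times the tags per kb of the 250 at the other end only, a log2 difference of 0.45 ± 0.08. They were also 1.33 times as long. Both measures were higher in 10 of 10 libraries (exact sign-flip p = 0.001953, adjusted over 4 comparisons 0.0026). A region that reached both ends was counted at a start, so wider regions fall there more easily. How much of the length difference this definition sets was not tested. Members between protein-coding genes and members inside one did not differ in density beyond the spread between libraries (log2 difference -0.003 ± 0.059, exact p = 0.885). Those between genes were 0.87 times as long, shorter in 10 of 10 libraries (exact p = 0.001953). Base composition went with density as well. The 145 members with 10 or more CG in a start window had a mean of 80.1 tags per kb and the 382 with fewer had 49.3, a ratio of 1.62 that was above 1 in 10 of 10 libraries (exact sign-flip p = 0.001953). The CG-rich regions were shorter (2071 against 2571 bp). The comparisons by end, place and CG were added after seeing the data.

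Signal per member spanned a wide range. Mean tags ran from 12.7 to 2235 with a median of 87.8, and mean called length from 555 to 27690 bp with a median of 1888 bp. Members called in only 5 libraries had a median of 23.9 tags and those called in all 10 had 162. The 719 members called in all 10 are the ones on which age was tested region by region, and the other 470 were compared by calls.

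The 8 strongest members were broad regions, with mean called lengths from 9307 to 27690 bp. In limma 0 of the 8 passed the test of age, where 1.07% of all 12550 regions did, and a count of 0 is near that background. The highest was the region at 4833439F03Rik and Gm42161 (chr5:113127335-113155958), with 2217, 3893, 2775, 2284 and 1710 tags in young replicates 1 to 5 and 1982, 2197, 2320, 1984 and 992 in the old. Its ages overlapped, with a centred log2 difference of -0.15 ± 0.18 (limma adjusted p = 0.714). Gm36600 (1864 tags on average), Gm41668 inside Ttc39c (1838) and Gm41330 inside Mtss1 (1747) followed. Gm41330, at chr15:58971774-59009240, was also the widest member, with a mean called length of 27690 bp. Lncpint, a lncRNA induced by p53 that shares its region with 2210408F21Rik (chr6:31210895-31223430), had 1625 to 2344 tags in the young and 1252 to 1506 in the old. Those did not overlap as scaled tags, and after centring they did (log2 difference -0.16 ± 0.12, limma adjusted p = 0.505). Gm35591 lies inside Per2, a core repressor of the circadian clock, and had 990 to 1916 tags in the young and 995 to 1540 in the old. The remaining 2 were Gm44981 inside Slc6a6, the taurine transporter gene (1316 tags), and the region shared by Gm32800, Gm32845 and Gm33033 (1174 tags).

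The members at named lncRNAs with known roles had calls at both ages, some of them in few libraries. In each of 4 lists, 0 of the members tested passed the threshold in limma, where 1.07% of all regions did. The lists held genes described in liver, imprinted genes, nuclear body genes and regulatory lncRNAs. Of the liver list 6 of 17 genes had a member, of the imprinted list 3 of 8, of the nuclear body list 1 of 2 and of the regulatory list 9 of 28. With 5, 2, 1 and 8 members tested, a count of 0 is near that background. Malat1, the abundant RNA of nuclear speckles, had 691.9, 747, 678.4, 745.6 and 526.9 tags in young replicates 1 to 5 and 511.7, 517.9, 523.1, 529.6 and 373.3 in the old. Only young replicate 5 fell among the old values, and after centring the log2 difference was -0.17 ± 0.10 (limma adjusted p = 0.419). Hnf4aos, the opposite-strand gene of Hnf4a, had 774 to 1262 tags in the young and 607 to 890 in the old (-0.16 ± 0.10, limma adjusted p = 0.472).

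Gm16551, a lncRNA described in liver and placed 11210 bp from the end of Onecut1, had the largest difference of the liver list. It had 370.3, 235, 359.6, 301.3 and 193.6 tags in the young and 136.2, 101.6, 211.9, 138.9 and 85 in the old, and old replicate 3 lay above young replicate 5. The log2 difference was -0.84 ± 0.24 (limma adjusted p = 0.107). Of the 5 tested members of the liver list 1 was positive, and the median was -0.15 against -0.01 over all 12550 regions tested. The imprinted Kcnq1ot1, which silences genes of its cluster in cis, had 221 to 381 tags in the young and 88.9 to 233 in the old (-0.45 ± 0.23, limma adjusted p = 0.335). Peg13, an imprinted lncRNA inside Trappc9, varied widely: 11.3, 173.9, 13.6, 110.9 and 93.3 tags in the young against 129.6, 145.7, 112.6, 96 and 43.7 in the old (1.26 ± 0.63, limma adjusted p = 0.329). Young replicates 1 and 3 were low there and the others overlapped the old. Airn, the antisense RNA that silences Igf2r on the paternal chromosome, was called in 3 young and 2 old libraries at 10.9 to 23.6 tags.

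The small nucleolar RNA hosts, spliced RNAs whose introns release guide RNAs for ribosome synthesis, were split by how often they were called. The 3 called in all 10 libraries were near 0 in log2 difference: -0.06 for Snhg20, -0.04 for Snhg15 and -0.02 for Snhg5 (limma adjusted p = 0.858, 0.937 and 0.979). Snhg4 and Snhg17 had calls in 5 young and 4 old libraries and lower values in the old. Snhg4 had 48.2 to 84.9 scaled tags in the young and 19.6 to 37.7 in the old, with no overlap, and Snhg17 had 245 to 339 and 103 to 250.3, with overlap. With the absent call imputed, their log2 differences were -1.30 and -1.32 (limma adjusted p = 0.232 and 0.357). Mir99ahg, host of the miR-99a cluster, had 155 to 292 tags in the young and 155 to 243 in the old. Platr4 had 79.8 to 148 and 33.4 to 112.

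Of the 719 members called in all 10 libraries, 13 differed with age: 8 rose in the old (1.11%) and 5 fell (0.695%). Over all 12550 regions called in all 10 libraries, 67 rose and 67 fell, or 0.534% each way. Values were log2(scaled tags + 1), each library was centred on the median of those regions, and limma's moderated test was used at an adjusted p of 0.05 (Benjamini-Hochberg over all regions). Centring matters here, because without it every difference shifts by -0.30 on the log2 scale; log2 differences below are relative to the median region. At an unadjusted p under 0.05, 147 members passed (20.4%), 104 higher and 43 lower, against 17.2% of all regions, of which 7.99% were higher and 9.19% lower. IP efficiency also differed between the ages, and with it as a covariate 0 members and 0 of all regions passed in limma (67 members higher and 43 lower at an unadjusted p under 0.05).

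The 2 largest rises were at weakly acetylated starts of predicted lncRNA genes. Gm34333 (chr5:146598626-146601675, 12161 bp from the end of Gpr12, an orphan receptor gene) had 10.2, 19.6, 21.8, 38.7 and 18 tags in young replicates 1 to 5 and 61.8, 75.1, 42.8, 105 and 84.2 in the old. All old libraries lay above all young ones. The centred log2 difference was 2.08 ± 0.37 (limma adjusted p = 0.0269). Gm33447 (chr13:97375334-97376742, 122294 bp from the end of Enc1) had 19.8, 21.3, 15.7, 20.3 and 10.6 tags in the young and 59.1, 40.6, 35.2, 48.2 and 41.3 in the old, again with no overlap. Its log2 difference was 1.62 ± 0.28 (limma adjusted p = 0.0249). The called regions were longer in the old as well, 1904 against 863 bp on average at Gm34333 and 1208 against 711 bp at Gm33447. Per kb of called length, these were the only 2 of the 13 that still passed, as did 0.319% of all regions (0.84 and 0.75, limma adjusted p = 0.0309 and 0.0395).

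Of the 6 other members that rose, 3 lay between protein-coding genes and 3 inside one. 2010106C02Rik starts inside Prkce, the gene of protein kinase C epsilon. It had 87.8, 89.3, 89.9, 159.5 and 95.2 tags in the young and 196.7, 230.5, 155.9, 173.9 and 146.2 in the old, with young replicate 4 inside the old range (1.10 ± 0.19, limma adjusted p = 0.0237). Gm36518 lies 12209 bp from the end of Fgr, a Src-family kinase gene of myeloid cells, and had 173.8, 239, 173.7, 171.3 and 129.3 tags in the young and 320.3, 229, 269.1, 268.8 and 227.1 in the old. Young replicate 2 overlapped the old (0.88 ± 0.14, limma adjusted p = 0.0189). The region at the Fgr end had a log2 difference of 0.79 (limma adjusted p = 0.0779). The 5 Kupffer cell markers had no called region in any library, and the lymphocyte marker Cd79a had one in 9 libraries. The part of other cell types in the result at Gm36518 was not tested. Gm39277, 45413 bp from Rhou, had 40.9 to 92.7 tags in the young and 89.1 to 113 in the old (0.99). Gm32317 inside Col15a1, a basement membrane collagen gene, had 185 to 354 and 257 to 466 (0.86). Gm39044, 12184 bp from Abhd17c, had 157 to 320 and 281 to 404 (0.82), and 4930449E18Rik inside Ablim1, an actin-binding protein gene, had 282 to 437 and 288 to 511 (0.52). The limma adjusted p of these 4 were 0.0438, 0.0269, 0.0388 and 0.0475 in that order, and they overlapped between ages as scaled tags and did not after centring.

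**Figure D2:**
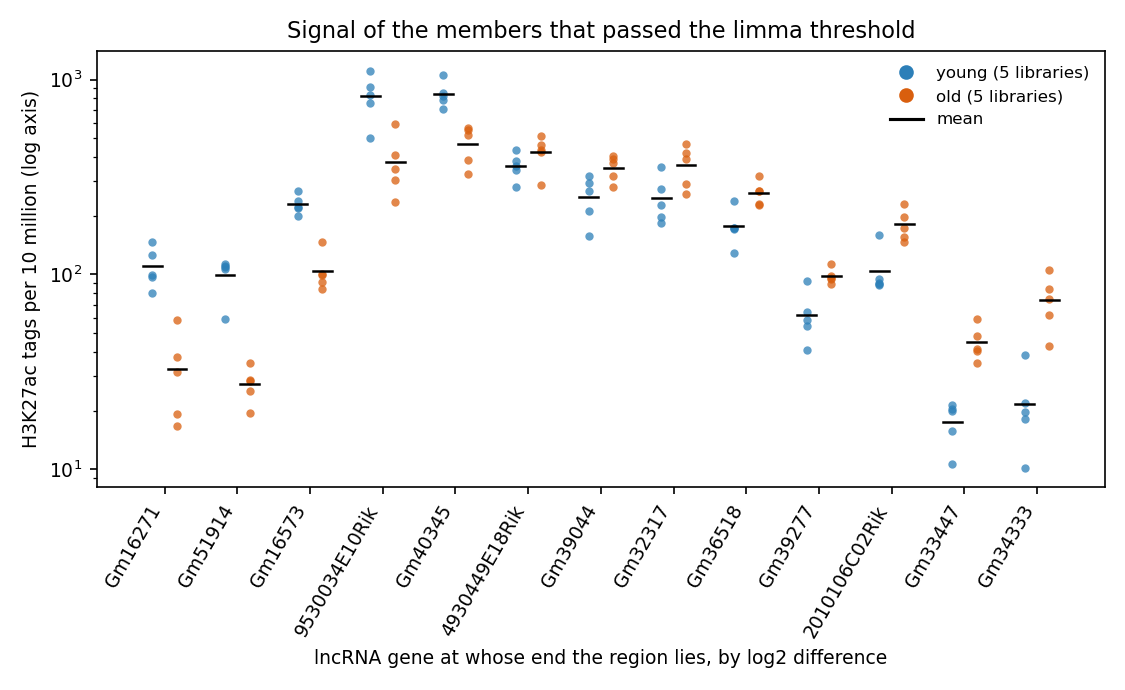
H3K27ac scaled tags (per 10000000, log axis) in 10 libraries at the 13 members past the limma threshold, ordered by log2 difference, with young libraries in blue, old in orange and black lines at the means. The ages are apart in these values at Gm16271, Gm51914, Gm16573, Gm40345, Gm33447 and Gm34333 and overlap at the other 7.

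Of the 5 members that fell, 4 lay inside protein-coding genes. Gm16271 (chr10:87029908-87033925), the exception, lies 21870 bp from the end of Stab2 and had 80.4, 146.3, 97.4, 125.4 and 99.7 tags in young replicates 1 to 5 and 58.4, 31.5, 37.7, 19.1 and 16.7 in the old. No old library reached the young range (log2 difference -1.53 ± 0.27, limma adjusted p = 0.0269). Stab2, a scavenger receptor gene of liver sinusoidal endothelium, had a called gene-end region in 0 young and 1 old library. Of the 5 endothelial markers 3 had a call in some library, Kdr and Pecam1 had none, and their summed level was 0 to 26.3 tags in young libraries and 0 to 57.8 in old ones. Their part in the result was not tested. Gm51914 (chr11:86612326-86616524) lies inside Vmp1, an endoplasmic reticulum protein gene needed for autophagy. It had 111, 59.3, 106.3, 112.9 and 108.7 tags in the young and 25.3, 28.4, 19.5, 28.6 and 34.9 in the old, with no overlap as scaled tags and overlap after centring (-1.52 ± 0.32, limma adjusted p = 0.0464).

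Gm16573 (chr14:56617345-56622173) starts inside Parp4, the gene of the vault poly(ADP-ribose) polymerase, and had 200.4, 269.5, 221.3, 237.6 and 219.1 tags in the young and 146.9, 99, 91.8, 83.8 and 100.9 in the old (-0.85 ± 0.17, limma adjusted p = 0.0373). Gm40345 (chr5:135687043-135698600) starts inside Por, which encodes the reductase that supplies electrons to microsomal cytochromes P450. It had 827, 1056, 705, 854 and 785 tags in the young and 562, 551, 518, 385 and 327 in the old (-0.57 ± 0.10, limma adjusted p = 0.0272). Neither region overlapped between ages. A region at the end of 9530034E10Rik, inside the sialyltransferase gene St3gal3, had 502 to 1112 tags in the young and 235 to 589 in the old, which overlapped (-0.85 ± 0.18, limma adjusted p = 0.0480). The mean called length was also shorter in the old at each of these 5 members, 1182 against 3265 bp at Gm16271 and 957 against 2283 bp at Gm51914, and per kb of called length 0 of the 5 passed in limma.

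**Figure D3:**
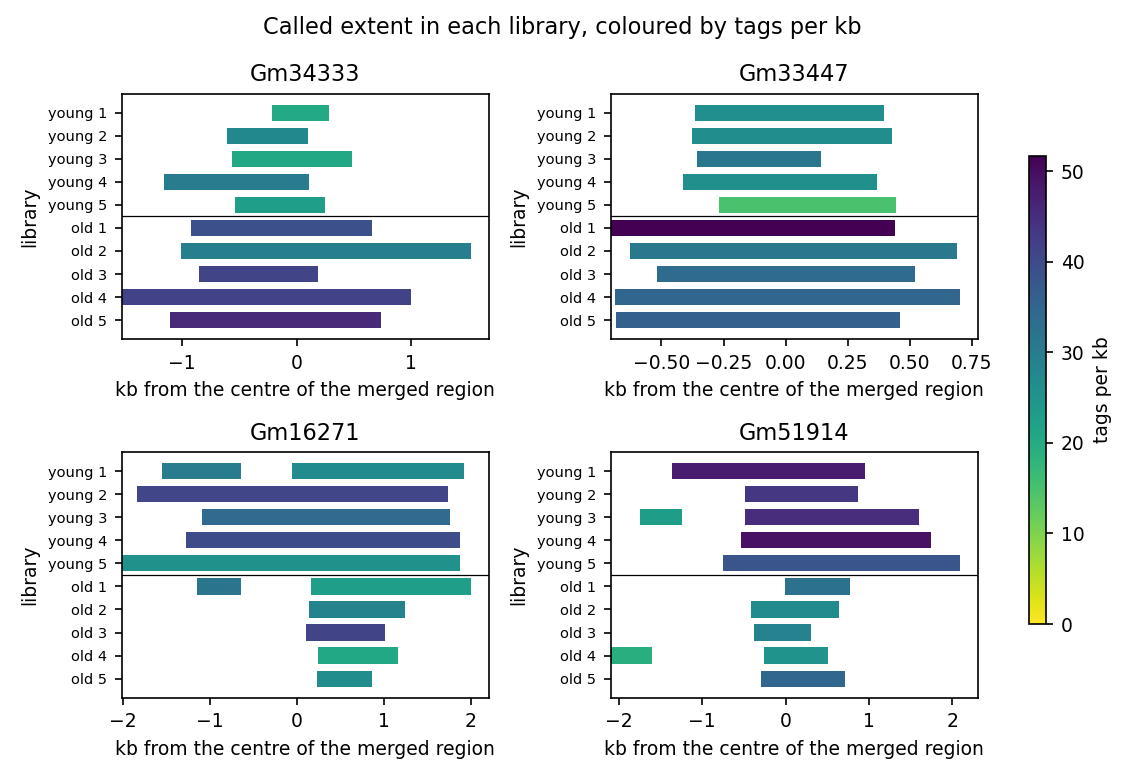
Called extent of the H3K27ac region in each of the 10 libraries at 4 members, in kb from the centre of the merged region, with colour giving tags per kb of called length and a line between young (above) and old (below). At Gm34333 and Gm33447 the old extents are wider and denser on average, and at Gm16271 and Gm51914 the young extents are wider.

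The calls depended on single libraries. Without old replicate 4, 0 members passed in limma although 30 of the 12550 regions did (95 members higher and 44 lower at an unadjusted p under 0.05). Without young replicate 1, 25 rose and 5 fell, and the share of all regions called was 2.03% against 1.07% with every library. edgeR's quasi-likelihood test called 9 members higher and 4 lower (0.972% of all regions) and shared 12 of the 13. DESeq2 called 50 and 19 (4.93% of all regions) and shared all 13.

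**Figure D4:**
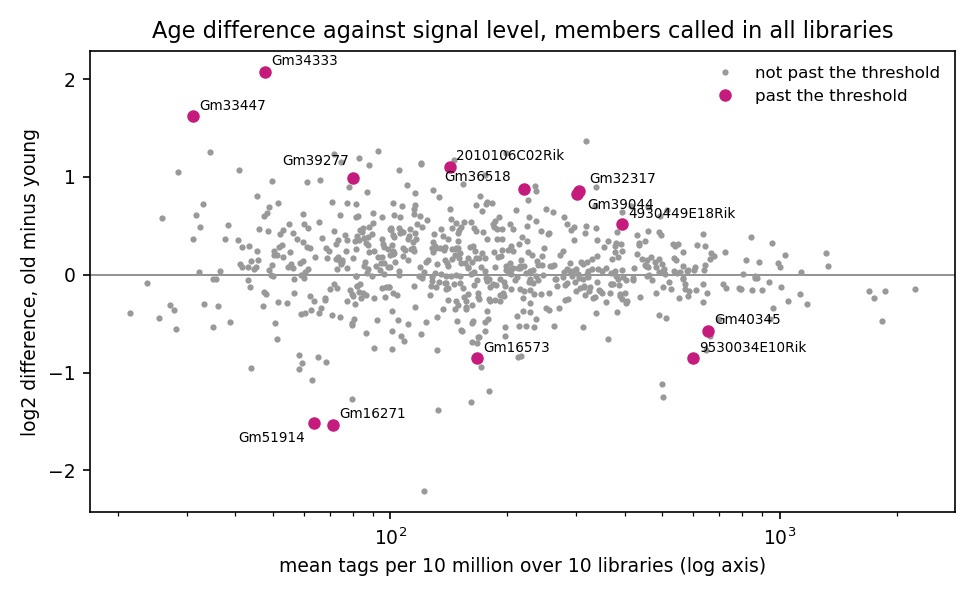
Log2 difference, old minus young after centring, against mean scaled tags (per 10000000, log axis) for the 719 members called in all 10 libraries, with the 13 past the limma threshold named in pink. The 4 largest differences that passed lie among members with under 100 tags, and the 8 strongest members lie between -0.47 and 0.22.

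Other members did not pass the threshold although their libraries did not overlap between the ages. After centring, all old values lay above all young ones at 32 members (4.45%, against 2.33% of all regions) and below at 14 (1.95%, against 2.96%). Gm9530 had 43.4 to 145 tags in the young and 102 to 217 in the old (1.14, limma adjusted p = 0.0596), and AI463170 inside Plekhg3 had 174 to 296 and 25.4 to 142 (-1.30, limma adjusted p = 0.0611). Gm34911, Gm45301 and Gm51567 share a region 21722 bp from Ppp1r3b, the glycogen-targeting subunit of protein phosphatase 1 in liver. It had 505 to 976 tags in the young and 112 to 507 in the old (-1.12, limma adjusted p = 0.0564). In the fit over regions called in 5 or more libraries, with absent calls imputed, this region passed (-1.26, limma adjusted p = 0.0435). Gm41285 inside Dap, 1700001L05Rik, Gm32304 and Gm6559 also separated after centring. Their log2 differences were -1.25, -0.75, 1.07 and 1.07, with limma adjusted p of 0.318, 0.127, 0.0754 and 0.101. At Gm41285 (SE 0.61) old replicate 5 had 21.4 tags, the other old libraries 312 to 498 and the young 514 to 1064. The lowest log2 difference of any member tested was -2.22, at the start of Gm11342 inside Cmah, an enzyme gene of sialic acid synthesis, where the gene has 2 members. It had 194.2, 289.1, 206.4, 187.1 and 101.4 tags in the young and 32.5, 32.1, 151.5, 14.3 and 13.5 in the old, with old replicate 3 inside the young range (limma adjusted p = 0.0509; named after its value was seen). The member at the other end of Gm11342 had -0.64 (limma adjusted p = 0.14).

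The members as a group sat slightly above the median region in the old. Their median log2 difference was 0.07 with 59.3% positive, beside -0.01 with 48.3% over all 12550 regions, -0.05 with 40.03% over 6562 coding-end regions and 0.08 with 58.1% over 3693 distal ones. Signal level differed between these sets, with median tags of 162 for members, 254 for coding ends and 98.6 for distal regions, and so did the spread between libraries of an age (median SD 0.34, 0.23 and 0.41 on the log2 scale). In 5 equal bins of the regions by signal, from low to high, the members' medians were 0.11, 0.22, 0.07, 0.02 and 0.03, and those of all regions 0.11, 0.05, 0.01, -0.04 and -0.08. Without centring the members' median was -0.22.

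Where the lncRNA lay went with the difference between ages. The median was 0.13 over the 469 tested members between protein-coding genes and -0.05 over the 250 inside one. Per library, the centred median of members between genes minus that of members inside was -0.51 ± 0.07 in the young and -0.24 ± 0.09 in the old (SD, n = 5 each), a difference of 0.27 with no overlap of ages (exact permutation p = 0.00794, two-sided, the smallest 252 splits can give). Per kb of called length the difference was 0.07 (exact p = 0.0159). Distal regions, which are not members, had the same contrast at 0.19 (exact permutation p = 0.00794), from 1289 between genes and 2404 inside. This comparison was added after seeing the data.

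Density over all members did not separate the ages. The members' median was 45.9 ± 6.92 tags per kb in the young and 45.9 ± 4.38 in the old (SD, n = 5 each; exact permutation p = 0.984), and that of coding ends was 93.3 ± 13.7 and 79.6 ± 6.43 (exact p = 0.0794). The gap between the 2 classes was narrower in the old by 0.23 on the log2 scale (exact permutation p = 0.0159, adjusted over 2 comparisons 0.0318). That call did not hold in regions called in all 10 libraries (0.18, exact p = 0.143) or when 8 of the 10 libraries were each left out (exact p = 0.0556). Against distal regions the age difference was -0.05 (exact p = 0.143). Median called length of members was 2131 ± 168 bp in the young and 1980 ± 183 bp in the old (exact permutation p = 0.222), and input tags per kb were 5.41 ± 0.57 and 6.05 ± 0.51 (exact p = 0.143).

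The number of members called did not separate the ages. Young libraries called 1043, 1135, 990, 1125 and 1058 members and old libraries 1088, 1098, 1091, 1061 and 914, a mean difference of -19.8 (exact permutation p = 0.698). Old replicate 5, which also had the fewest tags and the lowest IP efficiency, called the fewest, and without it the difference was 14.3. As many young as old libraries called 794 members, more young ones called 230 (19.3%, against 20.6% of the 23007 regions called in 5 or more libraries) and more old ones 165 (13.9%, against 17.2%).

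**Figure D5:**
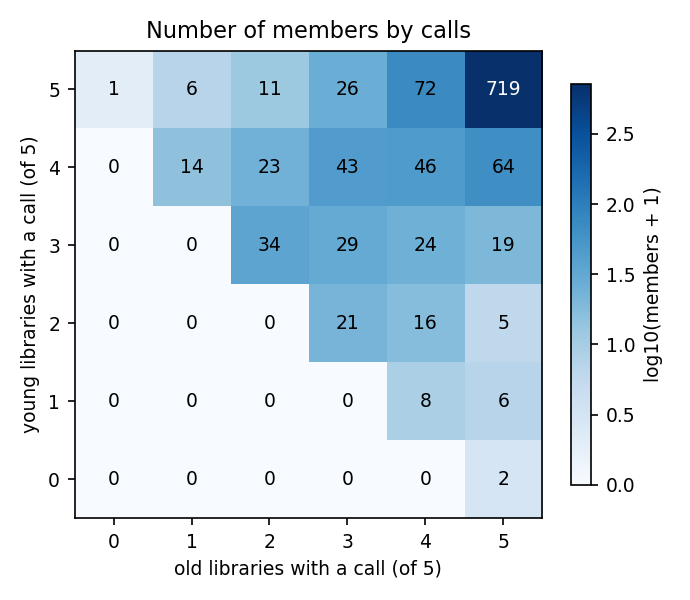
Number of members by how many young (vertical axis) and old (horizontal axis) libraries called them, shaded by log10 of the number plus 1. The cell for all 10 libraries holds 719, the cell for 0 young and 5 old holds 2 and the cell for 5 young and 0 old holds 1; cells with fewer than 5 calls are empty by the rule.

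Calls at single members differed most at 15 regions with an unadjusted Fisher exact p under 0.05 (1.26%, against 0.835% of all regions), and 0 passed after adjustment (smallest adjusted p = 1). More old libraries called 8 of them (0.673%, against 0.152%) and more young libraries 7 (0.589%, against 0.682%). The region at Gm17746, 30990 bp from Id2, was called in 0 young libraries and in old replicates 1 to 5 at 23.9, 28.9, 20.7, 11.7 and 15.1 tags (Fisher exact p = 0.00794). The region shared by Gm46398 and Gm30551 was also called in 0 young and 5 old, at 15.3, 15.2, 108.8, 28.1 and 33.4 tags, with old replicate 3 far above the others. Gm35279 was called in 5 young libraries, at 87.2, 26.5, 41.5, 57.1 and 49.9 tags, and in 0 old. A call can be missed where signal is low, and the signal of a library at a region it did not call is not analysed here.

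One young and 5 old libraries called Lncbate1, a lncRNA known from brown fat that lies inside Zfhx3, and Gm46361, Gm40443, 1700010L04Rik, Gm32603 and Gm13021 (Fisher exact p = 0.0476 each). Lncbate1 had 38 tags in young replicate 2 and 26 to 54.7 in the old. In Gm13021 the single young value was 19.3 and the old ones ran from 27.8 to 62.9. The reverse, 5 young and 1 old, was seen at Gm13594 inside Cobll1, Gm35474 inside Snx9, 2810471M01Rik, 1700126H18Rik, Gm39061 inside Numa1 and a second member of 9530034E10Rik. The strongest of them was 2810471M01Rik, with 82 to 146 tags in the young and 29.2 in old replicate 1. With each absent call imputed at the library's lowest value, its log2 difference was -3.15 (limma adjusted p = 0.0198). That of Gm13021 was 2.41 (limma adjusted p = 0.0435). No other member named for its calls passed that way. At 9530034E10Rik the second member, at the start of the gene, had 20.6 to 140 tags in the young and 32.7 in the old, and the region at the other end of the gene is the one described above that fell.

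Acetylation at lncRNA ends was compared with that at the nearest protein-coding gene end. Over 432 members with a tested region at that end, the log2 differences of both had Pearson r = 0.271 and Spearman rho = 0.242, and 51.2% had the same sign. The same over 2330 distal regions gave 0.207 and 0.221, with 54.1% of the same sign. These correlations are across regions of the same libraries, which share depth and IP efficiency, and regions are not independent. The neighbours of the 13 members showed little difference where they were tested: Vmp1 had -0.05, Prkce 0.02, Rhou -0.03, Abhd17c -0.04 and St3gal3 0.24 (limma adjusted p = 0.902, 0.929, 0.911, 0.923 and 0.398). Fgr was the largest of these 6 at 0.79. Among the neighbours of the strongest members, the Mtss1 end had -0.40 (limma adjusted p = 0.0611) and the Per2 end -0.04 (limma adjusted p = 0.892).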

How the data were processed

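H3K27ac ChIP-seq was measured in 20 samples, 10 H3K27ac and 10 input, of which the 10 region lists of the H3K27ac samples were used and the inputs' own tracks were not analysed here. Regions had been called by the authors with HOMER's histone setting, each library against its own input, per the file headers (peak size 500 bp, minimum distance 1000 bp, at least 4-fold over input, Poisson p at most 1e-04). No HOMER version or aligner is given in the sources used here; the build mm10 is from the submitters' processing notes. The deposited signal value of each region is tags scaled to 10000000 per library. The deposited estimated counts are tags and input tags before scaling, the deposited ratio is fold over input, and region starts and ends are as the authors give them. Human chromatin was added as a spike-in per the labels' protocols, and the file headers record no scaling by it.

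Regions were merged with pandas 2.3.3 by 1 bp overlap, and a library's value in a merged region was the sum over its called regions. Gene ends and types came from the RefSeq table of the same assembly. Regions called in all 10 libraries were tested with limma 3.58.1 (mean-dependent prior, no block) on log2(scaled tags + 1), a scale that understates changes at low signal, after centring each library on its median, with Benjamini-Hochberg adjustment over all 12550. edgeR 4.0.16 and DESeq2 1.42.0 on rounded estimated counts were alternatives. Values per library were compared with exact permutation tests (scipy 1.17.1), and calls with Fisher's exact test. The limma step was tested on simulated data, and the edgeR and DESeq2 steps were not. The members named in the text were drawn from those past the limma threshold, the 8 strongest, the 5 widest and the largest non-overlapping differences. Others came from genes of the fixed lists, calls with an unadjusted Fisher p under 0.05, the edges of the rule, and the nearest coding genes. Not every member of these groups is named, and some members were named after their values were seen. The members, lists and tests were chosen with earlier results of these data known, and the lists are therefore no independent evidence. Alternatives were other scalings, filters, thresholds and each library left out.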

Additional observations from a re-analysis of the deposited data

Results flagged for a closer look

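In 15 of 105 groups of 5 libraries, 1 library stood apart from the other 4 by Dixon's criterion (gap over range above 0.71), where chance would give about 1 in 20. Old replicate 5 was the low value in 6 of them: it called 914 members (the other old libraries 1061 to 1098), its members had a median called length of 1665 bp (others 1999 to 2111 bp), and it had 592 tags at Gm32800, 992 at 4833439F03Rik, 373 at Malat1 and 95.3 at 4833411C07Rik. Among the members past the limma threshold, young replicate 2 was low at Gm51914 (59.3 tags), old replicate 1 was high at Gm16573 (146.9) and young replicate 4 was high at 2010106C02Rik (159.5). Young replicate 4 was also high at Platr4 (147.6). Among members compared by calls, old replicate 3 was high at Gm40443 (27) and Gm46398 (108.8), old replicate 1 at Gm32603 (37.2), and young replicate 1 at Gm13594 (62.3) and 1700126H18Rik (157.4).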

How the results depend on the processing

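The higher density of members than distal regions and their lower density than coding ends kept direction and threshold under every alternative run for them. So did their greater length than distal regions, which the rule favours as said above. The density differences by lncRNA end and by CG content also kept direction and threshold when single libraries were left out. Counts of members called with age did not. Higher and lower counts were 5 and 0 per kb of called length (0.319% of all regions called, 93 and 25 members at an unadjusted p under 0.05). They were 2 and 32 without centring (5.78% of all regions called) and 50 and 19 with DESeq2 (4.93%). With absent calls imputed over all 1189 members they were 2 and 3 (0.287%, with 0 of the 13 among them). With IP efficiency as a covariate in limma they were 0 and 0 (0 of all regions called). At a stricter 8-fold over input 9 were higher and 0 lower of 165 tested (32 and 9 at an unadjusted p under 0.05). Of all 2159 regions tested there 1.95% were called. Where a call had to cover 0.5 of the merged length, 14 were higher and 0 lower of 313 (64 and 11 unadjusted). Of all 5593 regions tested there 1.7% were called. Leaving out single libraries gave 0 to 25 higher and 0 to 5 lower, with 0.239% to 2.03% of all regions called. The members' median turned to -0.22 without centring and -0.049 with imputation. Non-overlapping members were 46 of 719 tested, 14 of 165 at 8-fold and 22 of 313 with the cover rule. They numbered 52 to 81 with single libraries left out, where fewer values have to stay apart. The share over all regions was not counted at these alternative settings, so these counts are a description only. Without young replicates 1 and 3 together, 28 were higher and 5 lower (2.06% of all regions called), and 130 did not overlap.

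Length against coding ends turned to 0.060 at 8-fold (exact p = 0.102), 0.17 with the cover rule (exact p = 0.00195), 0.022 with lncRNA ends within 0.5 kb (exact p = 0.145) and 0.11 in regions called in all 10 libraries. The percent called against coding ends was 0.25 at 8-fold, -4.11 with the cover rule, and -5.12 to -3.30 with libraries left out. The age difference against coding ends was 0.11 at 8-fold (exact p = 0.286), 0.18 in regions called in all 10 libraries, 0.14 on centred tags there (exact p = 0.183) and 0.20 to 0.28 with libraries left out. Against distal regions it was 0.059 at 8-fold (exact p = 0.159), -0.063 with ends within 0.5 kb (exact p = 0.0397) and -0.065 to -0.031 with libraries left out. The number of members called, old minus young, ran from -39.9 to 14.3 with libraries left out. The cause of these changes was not tested.

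Young and old libraries share replicate numbers, but deviations of same-numbered libraries correlated at -0.0091, 0.1087, 0.1845, -0.0521 and 0.0671, and 1 of 5 numbers correlated best with itself, so the numbers were not taken to pair them. With the replicate block 2 members were higher and 4 lower, and 0.59% of all regions were called against 1.07% without it. Under the block 3 of the 13 members kept their call and 10 lost it. The age difference against coding ends (0.23) and that between members between and inside coding genes (0.27) had the smallest possible exact p of 0.0625. The members' median, the number called and the difference against distal regions kept their direction and call. Members called in 5 libraries had a median of 23.9 scaled tags, where few tags limit the precision.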
